A study of Homo sapiens with 3 samples.

Results

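Ribosome peaks on 10 enzymes of nucleotide and one-carbon synthesis were described in HEK293T cells, an established line from human embryonic kidney. The enzymes CAD, PPAT, GART, PFAS, PAICS, ATIC, IMPDH2, MTHFD1, SHMT2 and PHGDH were chosen as a list of genes by their function, among 3808 genes with a peak in any sample. Cells had been transfected transiently for 24 h, and there were 3 samples with 1 library each and no replicates. The vector sample had received empty pCDNA3.1, the WT sample FLAG-tagged WT DDX3X, and the G325E sample FLAG-tagged DDX3X G325E, a cancer-associated mutant of this RNA helicase. The series was designed to examine translation across the genome under these conditions. All 3 samples kept their own DDX3X, and the labels name the cell type as "Neuronal". The labels state that cells of all 3 samples were given 2 µg/ml of harringtonine for 90 s and then 100 µg/ml of cycloheximide. Harringtonine stalls ribosomes that are starting and cycloheximide those that are moving. The study's methods name cycloheximide alone, and the lists do not settle which was done.

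Each sample was deposited as a list of peaks, which are stretches of the genome where coverage by ribosome-protected fragments reached a cut-off. A peak has a position, a strand and an annotated region, but no height and no read count, so a longer list can come from a deeper library and the amount of ribosome on a transcript is not measured. The lists held 11219 peaks in vector, 19920 in WT and 15680 in G325E, with median lengths of 30, 30 and 31 bp. Numbers of peaks are therefore also given per 10000 peaks of the list. By the study's count of mapped reads without duplicates, the WT library was the deepest and the G325E library the shallowest. Whether depth bears on the numbers of peaks below was not tested. Intervals are exact Poisson or binomial, or Wilson's for shares, at 95%, and they cover counting error only. A floor of 3 peaks was 0.0267% of the vector list, 0.0151% of the WT list and 0.0191% of the G325E list. Of the numbers the authors had given to the peaks, 14.82% were missing from the vector list and 13.46% from the WT list, and 0 from the G325E list. DDX3X itself had 0 peaks in vector, 32 in WT and 9 in G325E, and RNA from the plasmid cannot be told apart from that of the cell's own gene.

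Purine nucleotides are built on a ribose phosphate by a chain of enzymes. PPAT makes the committed step, GART, PFAS and PAICS build up the ring, ATIC closes it to give IMP, and IMPDH2 turns IMP towards the guanine nucleotides. Pyrimidine synthesis starts with CAD, a single protein that carries several enzyme activities. One-carbon units attached to folate supply atoms of the purine ring: PHGDH opens the synthesis of serine from a glycolytic intermediate, SHMT2 takes a carbon from serine in mitochondria, and MTHFD1 interconverts the folate forms in the cytosol. Proliferating cells depend on these routes to make DNA and RNA.

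The stretches that carried peaks are shown for the members on which the results turn, read 5′ to 3′ on the strand of the gene from GRCh37 (hg19), the build of the files. The first covers the canonical start codon of MTHFD1 in the vector list, and the second covers a start codon in exon 2 of SHMT2 that 15 annotated transcripts use, at codon 22 of the canonical sequence. Capitals mark the start codon in both. The others are the widest MTHFD1 stretch listed in all 3 samples, the SHMT2 stretch in exon 3 that was listed on different strands, and the longest IMPDH2 peak of WT. The last 2 of these were chosen after their values were seen, and none of the 3 holds an annotated start codon.
MTHFD1 exon 1, chr14:64855134-64855186, vector: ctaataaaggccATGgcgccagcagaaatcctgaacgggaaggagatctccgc
SHMT2 exon 2, chr12:57624616-57624698, all 3 lists: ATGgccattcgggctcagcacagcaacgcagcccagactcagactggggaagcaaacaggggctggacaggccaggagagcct
MTHFD1 exon 24, chr14:64916271-64916323, all 3 lists: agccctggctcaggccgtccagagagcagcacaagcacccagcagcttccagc
SHMT2 exon 3, chr12:57625268-57625291, all 3 lists: tctgcagccgagctgcgctggagg
IMPDH2 exon 11, minus strand of chr3:49062329-49062376, WT: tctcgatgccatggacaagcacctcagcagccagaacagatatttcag

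Peaks were listed for 5 of the 10 enzymes. In vector these were PAICS, MTHFD1 and SHMT2, in WT the same genes with IMPDH2 and PHGDH, and in G325E MTHFD1, SHMT2 and PHGDH. MTHFD1 and SHMT2 were in all 3 lists, 2 of 10 enzymes, where 6.63% of 20056 protein-coding RefSeq genes were. A peak was thus present on 3, 5 and 3 of 10 enzymes in vector, WT and G325E, where 9.54%, 14.5% and 11.2% of 20056 protein-coding RefSeq genes had at least 1. RNA levels were not used here, so more transcript and more ribosomes per transcript cannot be told apart.

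Together the enzymes held 9 peaks in vector, 29 in WT and 11 in G325E. Per 10000 peaks this was 8.02 (3.67 to 15.2) in vector, 14.6 (9.75 to 20.9) in WT and 7.02 (3.50 to 12.6) in G325E. The ratio was 1.81 (0.84 to 4.36) for WT over vector, 0.48 (0.22 to 0.99) for G325E over WT and 0.87 (0.33 to 2.39) for G325E over vector. The WT value was the highest of the 3, but with peaks assigned by the lists' name of the nearest gene the values were 12.48 in vector, 8.53 in WT and 1.91 in G325E, and that order turned. G325E stood above vector when PAICS and MTHFD1 were left out, an alternative chosen after seeing the data (2.67 in vector, 7.53 in WT and 5.10 in G325E) and when scaled by the peaks of the 5′ UTR, exon and 3′ UTR classes (14.39, 24.96 and 15.52). Peaks on 1 transcript are not independent, so these intervals are narrower than the true error, and with 1 library per construct no difference has a replicate check. The enzymes' peaks covered 410, 1014 and 385 bases in vector, WT and G325E.

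**Figure D1:**
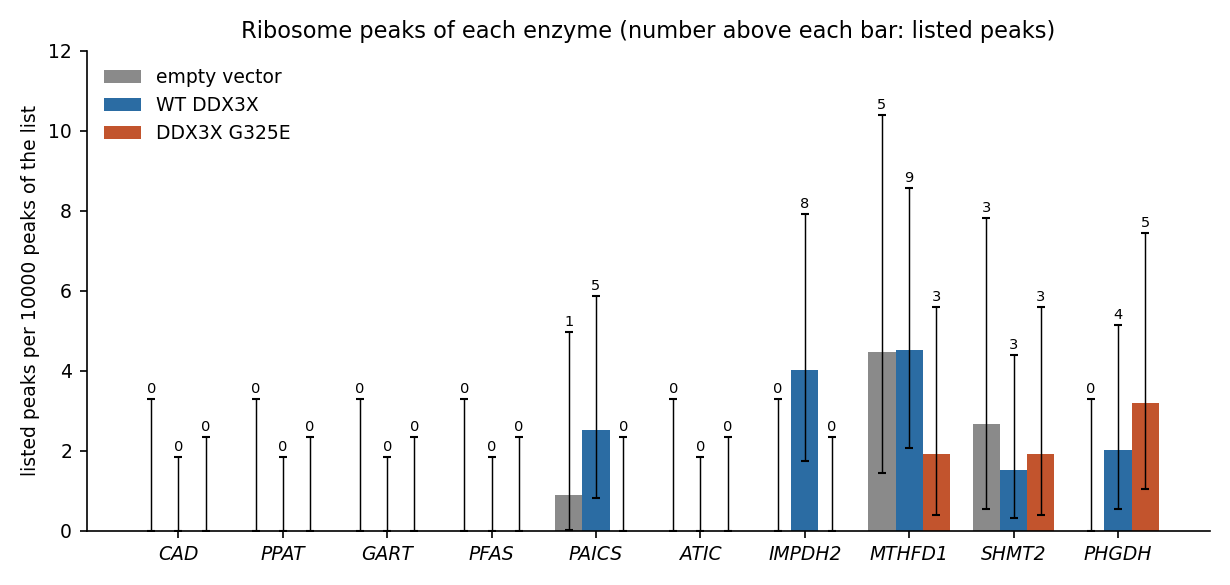
Listed peaks of each enzyme per 10000 peaks of the list (y axis, from 0) in the vector, WT and G325E samples, with exact Poisson intervals at 95% and the number of listed peaks above each bar. CAD, PPAT, GART, PFAS and ATIC stood at 0 in all 3 lists, and IMPDH2 had 8 peaks in WT and 0 in the others. The intervals of every enzyme, IMPDH2 included, overlapped between samples.

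CAD, PPAT, GART, PFAS and ATIC had 0 listed peaks in all 3 samples. Most genes had none either, since 17.3% of 20056 protein-coding RefSeq genes had a peak in any list. The coding length and GC content of these 5 enzymes differed, and whether either bears on the absence of peaks was not tested. CAD has the longest coding sequence of the 10, at 6675 nt over 44 exons and with 57.7% GC, which is above that of 66.4% of genes. PFAS has 4014 nt with 61.5% GC, above 80.0% of genes. GART (3030 nt, 46.5% GC), ATIC (1776 nt, 47.0%) and PPAT (1551 nt, 42.0%) lie below the median of 52.9% for all genes. The authors' peak numbers follow the genome, so missing rows can be placed between listed neighbours. Between the peaks that flank CAD and GART no number was skipped in vector or WT, and the G325E list has no missing number anywhere. For PPAT 1 number was skipped in vector, for PFAS 1 in WT and for ATIC 1 in WT, in intervals that reach well beyond each gene. A peak count of 0 means that coverage did not reach the cut-off in the listed rows, and does not show that the transcript was not translated.

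PAICS, a bifunctional enzyme in the middle of the purine chain (chromosome 4, 57301907 to 57330744), had 1 peak in vector, 5 in WT and 0 in G325E. The vector peak and 1 WT peak ended at the same base, the end of exon 5, at 57314989. WT added 3 peaks in exon 2 and 1 at the start of exon 6. Between the neighbours of PAICS, 1 peak number was skipped in vector, the one also counted for PPAT, and 0 in WT. Per 10000 peaks PAICS stood at 0.89 in vector and 2.51 in WT, a ratio of 2.82 with an interval from 0.32 to 133. With the floor of 3 peaks in place of 0, G325E stood 1.31-fold below WT, which does not cover the counting error of the 5 WT peaks. The PAICS exons with peaks had 37.9% to 44% GC, and the exon 2 of PAICS had the lowest GC of its 9 coding exons. All 5 PAICS peaks of 20 bp or longer had copies elsewhere in the genome in which at least 90% of the bases were the same, and 3 of them an identical copy. The PAICS values are therefore uncertain, since the lists do not show how reads that fit several places were shared. The copies themselves held 0 listed peaks.

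IMPDH2, the rate-limiting enzyme of guanine nucleotide synthesis (chromosome 3, 49061758 to 49066880, minus strand), had 0 peaks in vector, 8 in WT and 0 in G325E. The 8 WT peaks lay side by side on exons 10, 11, 12 and 13 of 14, with midpoints from codon 383 to codon 495 of 513, and covered 14.9% of the coding sequence. This was 4.02 (1.73 to 7.91) per 10000 peaks. With the floor of 3 peaks in place of 0, WT stood 1.5-fold above vector and G325E 2.10-fold below WT. The counting error of the 8 WT peaks is not covered by these folds. Between the neighbours of IMPDH2, 2 numbers were skipped in vector, 2 in WT and 0 in G325E, whose list has no missing number anywhere. Whether rows had been removed from that list before it was numbered is not known. The IMPDH2 peaks of 20 bp or longer, 7 in number, had 0 near-identical copies.

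MTHFD1, the cytosolic enzyme whose product feeds GART and ATIC (chromosome 14, 64854749 to 64930175), had 5 peaks in vector, 9 in WT and 3 in G325E. Per 10000 peaks this was 4.46, 4.52 and 1.91. The ratio was 1.01 (0.31 to 3.85) for WT over vector and 0.42 (0.07 to 1.70) for G325E over WT. MTHFD1 has 28 exons, and by the canonical transcript its exonic peaks lay on 2 of them. Exon 24 carried peaks in all 3 lists, with midpoints from codon 760 to codon 819 of 934, and exon 1 carried a peak in vector and in WT. In G325E the peaks were on exon 24 alone. Between the neighbours of MTHFD1, 1 peak number was skipped in vector and 0 in WT.

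The exon 1 peak of MTHFD1 covered the start codon. In vector it began 12 nt before the first base of the codon and in WT 30 nt before, and in both it ended at the end of the exon, at 64855186. G325E had no listed peak there. Further upstream, in the 5′ UTR of a longer MTHFD1 transcript, vector had 2 peaks that ended 129 and 124 nt before the start codon, and WT had 1 that ended 89 nt before it, with 0 in G325E. This was 1 of 10 enzymes with a peak over its canonical start codon in vector and WT, and 0 of 10 in G325E. Start codon peaks were not counted over all genes. Of all coding peaks, 13.8% in vector, 12.8% in WT and 23.3% in G325E lay in the first 10% of the coding sequence. For the enzymes these were 2 of 7, 5 of 26 and 1 of 11. When a peak was instead counted by a midpoint within 30 nt of the start codon, WT also had PAICS.

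The exon 24 peaks of MTHFD1 were cut up differently in each list. In vector they were a pair, at 64916163 to 64916186 and 64916237 to 64916325. WT had 5 in the exon, the longest of 97 bp, and 2 more of 12 and 1 bp in the intron that follows, of which the last was on the opposite strand. G325E had 3 between 64916163 and 64916323. When peaks under 10 bp apart were counted as 1, MTHFD1 had 4, 5 and 2 peaks, and with peaks under 20 bp left out WT kept 4. Chromosome X holds near-identical copies of both blocks of MTHFD1. They matched 96.2% and 95.8% of the bases of the start codon peaks of vector and WT, and 92.5% to 97.1% of the bases of the exon 24 peaks of 20 bp or longer that had a copy. Of all MTHFD1 peaks of that length, 2 of 4 in vector, 3 of 4 in WT and 2 of 2 in G325E had such a copy, none of them identical, and the copies held 0 listed peaks.

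SHMT2, the mitochondrial enzyme that passes a carbon from serine to folate (chromosome 12, 57623356 to 57628718), had 3 peaks in each list. It was the only enzyme of the 5 with peaks that had the same number in each list. Per 10000 peaks SHMT2 stood at 2.67 in vector, 1.51 in WT and 1.91 in G325E. The ratio was 0.56 (0.08 to 4.20) for WT over vector and 1.27 (0.17 to 9.49) for G325E over WT, and both intervals span changes of several fold in either direction. Exons 2 and 3 of 12 held all of the SHMT2 peaks, and they covered 9.79%, 10.1% and 9.06% of the coding sequence in vector, WT and G325E.

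The first SHMT2 peak had the same edges in vector and G325E, 57624616 to 57624698, and ran from 57624604 to 57624699 in WT. Its first base in vector and G325E is the A of the start codon in exon 2 shown above, and in WT the peak began 12 nt before it. That start codon lies in the frame of the canonical one, and protein started there lacks the residues before it, which include part of the mitochondrial targeting sequence. With start codons of any annotated transcript counted, an alternative chosen after seeing the data, 2 enzymes in vector, 2 in WT and 1 in G325E had a peak over a start codon, namely MTHFD1 and SHMT2 in the first pair and SHMT2 in G325E. The third SHMT2 peak began at 57625268 in all 3 lists and was 24 to 26 bp long. It was on the strand of the gene in vector and on the opposite strand in WT and G325E. Over all genes, 2.33% of the WT peaks that overlapped a vector peak did so on the opposite strand alone, and 3.27% of such G325E peaks. Opposite-strand peaks made up 0 of 9 peaks of the enzymes in vector, 3 of 29 in WT and 1 of 11 in G325E. Those of MTHFD1 and PHGDH in WT were 1 bp long. This measure was not taken over all genes, and the 2.33% and 3.27% are of overlapping peaks only.

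PHGDH, which commits a glycolytic intermediate to serine (chromosome 1, 120191034 to 120286841), had 0 peaks in vector, 4 in WT and 5 in G325E. All of them were in exon 11 of 12, with midpoints from codon 413 to codon 483 of 532. Among the 10 enzymes, and without a count of such genes over the whole lists, PHGDH alone had peaks in G325E and none in vector. Its WT and G325E peaks covered nearly the same bases, 152 and 156, and every G325E peak overlapped a WT peak, the last of them on the opposite strand. The WT peak of 90 bp appeared in G325E as a pair with the same outer edges, and with peaks under 10 bp apart counted as 1 both lists had 4. The ratio of G325E over WT was 1.59 (0.34 to 8.0). With the floor of 3 peaks in place of 0, G325E stood 1.19-fold above vector, which does not cover the counting error of its 5 peaks. Between the neighbours of PHGDH, 1 peak number was skipped in vector. Exon 11 had the highest GC of the 12 coding exons of PHGDH, at 63.9%, where the others ran from 53.5% to 63.1%.

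**Figure D2:**
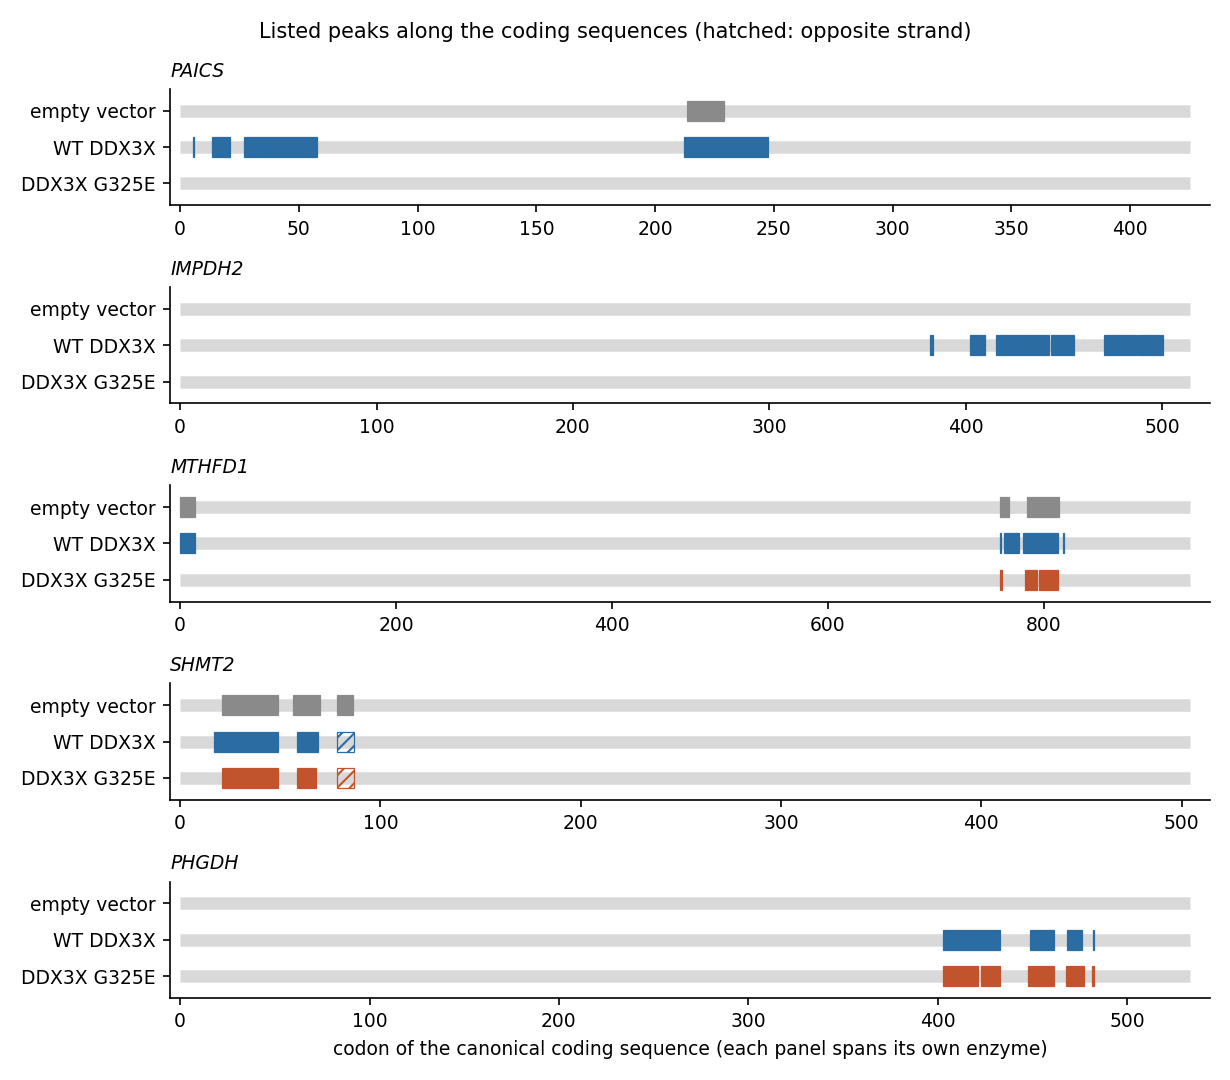
Listed peaks along the canonical coding sequence (x axis, in codons, each panel spanning its own enzyme) of the 5 enzymes with peaks, in the vector, WT and G325E lists, with peaks on the opposite strand hatched. Peaks fell in a few short blocks, the blocks of MTHFD1 exon 24, SHMT2 and PHGDH lay at the same codons in each list that held them, and IMPDH2 had a block in WT alone.

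Genes with at least 5 peaks in a pair of samples together were compared after scaling by list length, and a gene was called when its scaled numbers were at least 2-fold apart, with a number of 0 taken as 0. A gene at 0 in 1 sample is therefore called once the other has 5. With the floor of 3 peaks in place of 0, IMPDH2 in G325E against WT was the only call with a 0 that still passed 2-fold. PAICS in G325E against WT, IMPDH2 in WT against vector and PHGDH in G325E against vector did not. The other number was taken as exact, so its counting error is not covered. With 1 library per construct a call is a description of these libraries. Between WT and vector, PAICS and IMPDH2 were called higher in WT, 2 of 4 enzymes compared, where 27.2% of 2217 genes were. None of the 4 was called lower, against 18.0% of genes. Between G325E and WT, PAICS, IMPDH2 and MTHFD1 were called lower in G325E, 3 of 5, where 27.9% of 2562 genes were, and 0 of 5 were called higher, against 26.1%. Between G325E and vector, PHGDH was called higher (1 of 3, against 34.3% of 2095 genes) and MTHFD1 lower (1 of 3, against 23.2%). The 3 comparisons share samples, and with 3 to 5 enzymes in each a share is known only roughly.

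The enzymes' median log2 ratio, taken with 0.5 peaks added to each number, was 0.50 for WT over vector, −1.10 for G325E over WT and −0.48 for G325E over vector. Over all genes compared the medians were −0.34, 0.14 and −0.05. Several of these calls rest on few or short peaks. With peaks under 20 bp left out, 1 of 4 enzymes was lower in G325E than in WT, where 24.4% of all genes compared were. In that setting 0 of 2 were higher in G325E than in vector, against 33.4%. With the same number of longest peaks taken from each list, 0 of 2 were higher in WT than in vector, against 17.2%. For G325E and WT, 0 of 3 were lower in G325E, against 20.1%.

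The G325E peaks of the enzymes shared bases with WT peaks, though some ran past the WT edges. All 11 of 11 overlapped a WT peak by at least 1 bp (74.1% to 100%), where 47.6% of all G325E peaks did. On the same strand it was 10 of 11, since the last PHGDH peak of G325E, of 2 bp on the strand of the gene, met a WT peak of 1 bp on the opposite strand. The 11 peaks were all coding by their midpoints, where 40.9% of all G325E peaks on genes with a canonical transcript were. The 47.6% is thus not a like-for-like share. Against vector, 6 of 11 G325E peaks overlapped (54.5%, 28.0% to 78.7%), where 35.7% of all did. Of the 29 WT peaks 9 overlapped a vector peak (31%, 17.3% to 49.2%), where 41.9% of all did, and 7 of the 9 vector peaks overlapped a WT peak (77.8%, 45.3% to 93.7%), where 77.2% of all did. The other 2 vector peaks were those upstream of the MTHFD1 start codon. The WT peaks without a vector counterpart included all of the 8 IMPDH2 and 4 PHGDH peaks.

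Peaks of the enzymes were coding peaks for the most part. By the canonical transcripts, 7 of 9 in vector (77.8%, 45.3% to 93.7%), 26 of 29 in WT (89.7%, 73.6% to 96.4%) and 11 of 11 in G325E (100%, 74.1% to 100%) had their midpoint in coding sequence, where 57.4%, 58.0% and 40.9% of all peaks on genes with a canonical transcript did. None was in the promoter-TSS class, the annotation's class for peaks near a transcription start site, which held 23.0% of all peaks in vector, 21.1% in WT and 34.7% in G325E. The 5′ UTR class had 2 peaks in vector (22.2%, 6.32% to 54.7%), 1 in WT (3.45%, 0.61% to 17.2%) and 0 in G325E, where it had 5.05%, 5.16% and 8.67% of all peaks. All 3 of these were on MTHFD1.

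Along the coding sequence, from 0 at the start codon to 1 at the stop codon, the coding peaks of the enzymes had a mean position of 0.365 ± 0.361 in vector (SD over 7 peaks), 0.619 ± 0.353 in WT (26 peaks) and 0.645 ± 0.340 in G325E (11 peaks). Over all genes the means were 0.493, 0.503 and 0.395. Of the enzymes' coding peaks in vector 2 of 7 lay in the last 30% of the coding sequence (28.6%), where 31.4% of all coding peaks did. Among those of G325E, 8 of 11 lay there (72.7%), where 22.6% of all did. Those 8 were the peaks of MTHFD1 exon 24 and PHGDH exon 11, so they stand for 2 transcripts. In WT, 17 of 26 lay there (65.4%), from MTHFD1, PHGDH and IMPDH2, where 32.1% of all did.

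Within a transcript the peaks were gathered on few exons. MTHFD1 had peaks on 7.1% of its exons in vector and WT and on 3.6% in G325E, SHMT2 on 16.7% in each list, and PHGDH on 8.3% in WT and G325E. IMPDH2 had them on 28.6% and PAICS on 33.3% in WT. Over genes with at least 8 exons and 3 exonic peaks the median was 18.2% in vector, 18.8% in WT and 10.3% in G325E, so the enzymes named lay below it in vector and on both sides of it in WT and G325E. By length, coding peaks covered from 3.69% (PAICS) to 9.79% (SHMT2) of the coding sequence in vector, 6.60% (MTHFD1) to 17.5% (PAICS) in WT and 3.28% (MTHFD1) to 9.76% (PHGDH) in G325E. The median over all genes with a coding peak was 16.0%, 15.2% and 14.5%.

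GC content differed between the lists over all genes. In the 31 nt around a peak's midpoint it averaged 62.7% in vector, 62.2% in WT and 73.1% in G325E. The peaks of the enzymes averaged 62.4% ± 8.2 (SD over 9 peaks) in vector, 52.7% ± 10.3 (29 peaks) in WT and 62.2% ± 7.9 (11 peaks) in G325E. The WT average was lower through PAICS (39.4%), MTHFD1 (52.0%) and IMPDH2 (53.6%), while SHMT2 (63.4%) and PHGDH (61.3%) stood near the average of all WT peaks. The exons whose peaks were in the G325E list, MTHFD1 exon 24, SHMT2 exons 2 and 3 and PHGDH exon 11, had 58.4%, 61.1%, 58.8% and 63.9% GC. The exons with peaks in vector or WT but not in G325E ran from 37.9% in PAICS to 58.5% in MTHFD1 exon 1. The part of GC content in which peaks were listed was not tested. CAD and PFAS had exons of up to 72.0% and 67.9% GC and no peak.

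**Figure D3:**
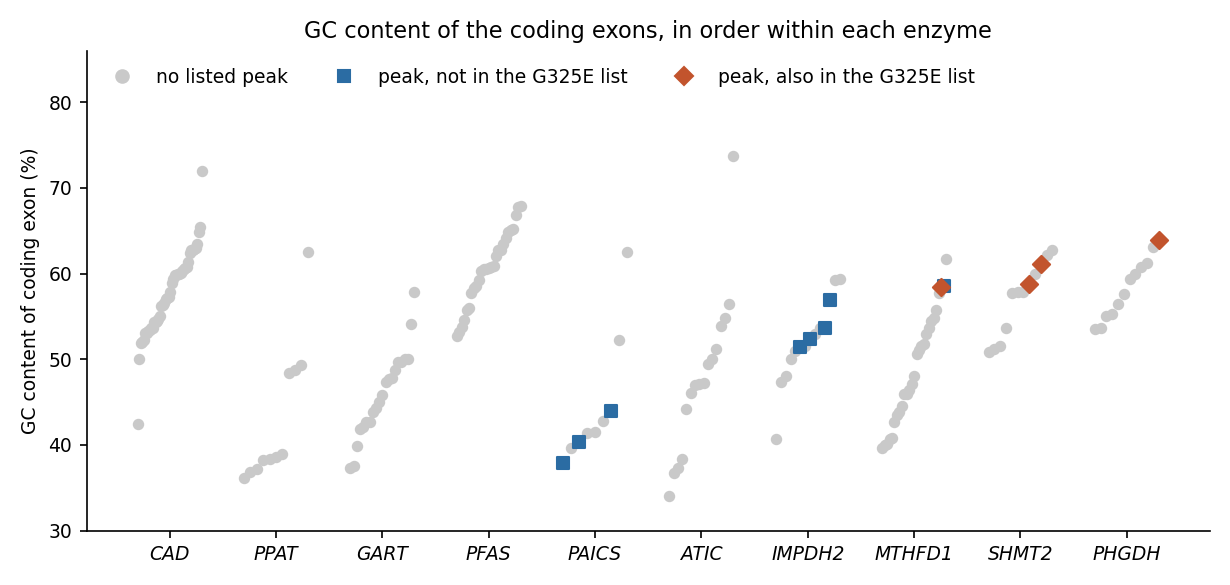
GC content in percent (y axis) of every coding exon of the 10 enzymes, in rising order within each enzyme, with exons marked by whether they held no listed peak, a peak in vector or WT only, or a peak also in G325E. The exons with a G325E peak had 58.4% to 63.9% GC, those with peaks in the other lists alone had 37.9% to 58.5%, and many exons of CAD and PFAS in the same range had no peak.

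A list of 45 other genes of these routes was described in the same way. Of them 14 had a peak in vector, 22 in WT and 14 in G325E, 25 in any list and 10 in all 3, and their peaks numbered 65, 121 and 76. Between WT and vector 5 of 16 compared were called higher and 3 lower, where 27.2% and 18.0% of all genes were. Between G325E and WT 2 of 18 were higher and 6 lower, against 26.1% and 27.9%. Between G325E and vector 3 of 13 were higher and 2 lower, against 34.3% and 23.2%. The list's median log2 ratios were −0.36, −0.02 and −0.48. The genes named next each had at least 5 peaks in a list.

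In deoxynucleotide synthesis, RRM2, a subunit of ribonucleotide reductase, had 8, 8 and 9 peaks in vector, WT and G325E, and its relative RRM2B had 0, 4 and 5. Of the RRM2B peaks, 1 in WT and 3 in G325E were in the promoter-TSS class. TYMS, which makes thymidylate with a folate carbon, had 0, 0 and 7, of which 4 were in the promoter-TSS class. The kinase DTYMK had 6, 9 and 5 peaks and TK1, which salvages thymidine, 5, 5 and 4. RRM2B and TYMS were called higher in G325E than in vector, as was MTHFS among the folate enzymes, and GUK1 and AHCY were called lower. Against WT, TYMS and MTHFS were called higher in G325E, and ADSS2, PRPS2, NME1, GUK1, AHCY and FPGS lower.

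In purine synthesis and salvage, ADSS2, which directs IMP towards AMP, had 0, 7 and 0 peaks, and PRPS2, which makes the activated ribose that PPAT uses, had 0, 6 and 0. Like IMPDH2, both had peaks in WT alone. The share of all genes with peaks in WT alone is not given here. The WT list was the longest, with a peak on 14.5% of protein-coding RefSeq genes, against 9.54% in vector and 11.2% in G325E. APRT, which salvages adenine, had 6, 7 and 7. Among kinases GUK1 had 6, 8 and 0, NME1 1, 7 and 0, and NME2 11, 7 and 9, where NME1 and NME2 are close paralogs and how reads were split between them is uncertain.

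In folate and serine metabolism, MTHFD1L, the mitochondrial relative of MTHFD1, had 5 peaks in each list, all in the promoter-TSS class. MTHFS had 0, 0 and 10, of which 5 were in the promoter-TSS class and the rest in the non-coding class. FPGS, which adds glutamates to folate, had 0, 7 and 0. AHCY, which clears the product of methylation reactions, had 3, 11 and 2. PSPH, the last enzyme of serine synthesis that PHGDH opens, had 3, 7 and 5, all in the promoter-TSS class. Among the other genes named, RRM2, DTYMK, APRT and NME2 also had peaks of this class in every list, and NME1 in vector and WT.

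**Figure D4:**
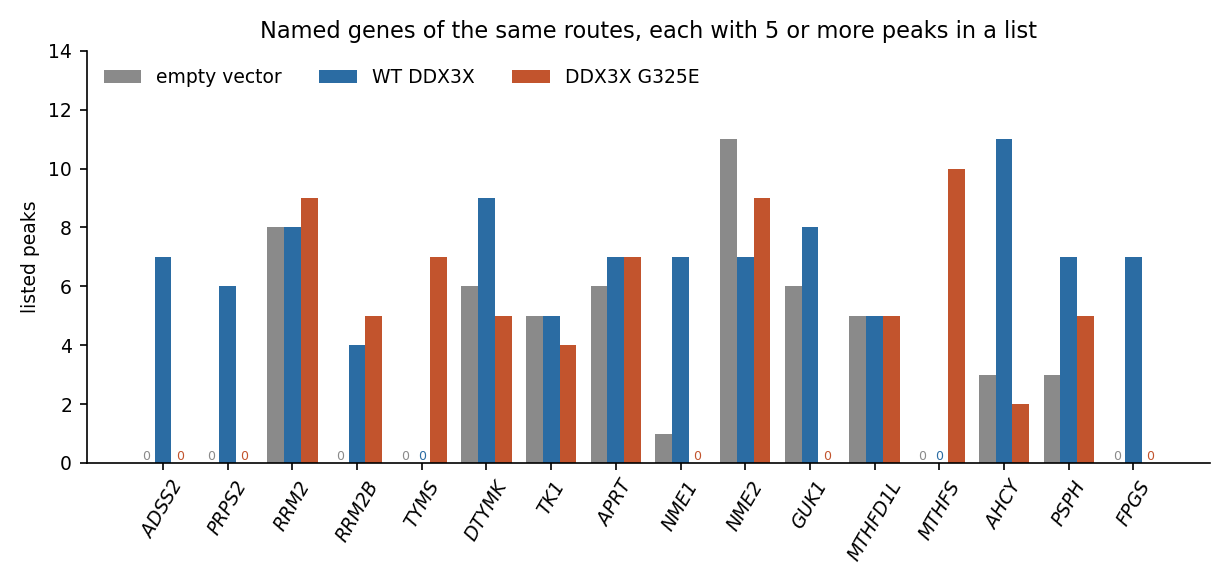
Number of listed peaks (y axis, from 0) in the vector, WT and G325E samples for the other genes of the same routes that are named here, each with at least 5 peaks in a list. ADSS2, PRPS2 and FPGS had peaks in WT alone, TYMS and MTHFS in G325E alone, and RRM2, APRT and MTHFD1L had nearly equal numbers in the 3 lists.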

How the data were processed

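Ribosome-protected RNA of 3 HEK293T samples was sequenced, with 1 library per construct. Per the study's methods and the submitters' processing notes, the authors trimmed adapters with cutadapt, aligned reads with BWA 0.5.5 to hg19 together with transcript sequences, removed duplicates and listed stretches whose coverage reached a cut-off. The deposited values are positions and annotations of peaks in the layout of HOMER, whose version is not given in the sources used here. They hold no count, signal or score, so read depth is not known from them. The order of depth given above comes from the study's supplement.

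Samples were grouped by title. A peak went to the gene of the RefSeq identifier in its annotation, matched to RefSeq's gene table, and otherwise to the listed nearest gene. The listed start lay 1 base inside known exon starts, so 1 was taken off each start. Positions came from canonical transcripts of GENCODE release 44 on GRCh37. Copies were sought with BLAST 2.17.0 (word size 11). Analyses used Python 3.11.15, numpy 2.4.6, scipy 1.17.1, pandas 2.3.3, pysam 0.24.0 and matplotlib 3.10.9, and were tested on simulated positions and numbers.

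The enzymes, the list of other genes and the settings were chosen with earlier results of these data known. Named were all 10 enzymes and those other genes with at least 5 peaks in a list, except results that are not reported here. No test between samples was possible, and calls were a fold of 2. Alternatives changed the gene assignment, strand, classes, peak length, scaling, minimum number of peaks, overlap and start codon.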

Additional observations from a re-analysis of the deposited data

How the results depend on the processing

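No paired analysis was possible because there was 1 library per construct and the labels carry no replicate numbers, and for the same reason no replicate could be left out. Of 130 alternative values for the summed results above, 100 stayed within the counting interval or 1.5 times the count and 30 moved. Of 180 for the peak numbers of single enzymes, 173 stayed and 7 moved. With the name column alone, the enzymes had 12.48 peaks per 10000 in vector, 8.53 in WT and 1.91 in G325E, so that vector was the highest. IMPDH2 then had 7 peaks in vector, MTHFD1 2 in WT and 0 in G325E, and PHGDH 0 in both WT and G325E. Of 4 enzymes, 1 was called higher (28.4% of all genes compared) and 1 lower (17.9%) in WT than in vector. None of 2 was called higher in G325E than in vector (34.2%). With list length taken as the 5′ UTR, exon and 3′ UTR peaks, vector stood at 14.39, WT at 24.96 and G325E at 15.52, so that G325E lay above vector. In that setting 1 of 5 enzymes was higher in G325E than in WT (35.2% of genes) and 0 of 3 lower in G325E than in vector (17.4%). With the median ratio 0 of 3 were lower in G325E than in vector (16.8%). On the strand of the gene alone, 1 of 4 was lower in WT than in vector (18.6% of genes) and 1 of 4 higher in G325E than in WT (27.9%). Without peaks under 20 bp, MTHFD1 had 4 peaks in WT. Then 1 of 4 enzymes was lower in G325E than in WT (24.4% of genes) and 0 of 2 higher in G325E than in vector (33.4%). With the same number of longest peaks, MTHFD1 had 3 peaks in WT, 0 enzymes were higher in WT than in vector, 1 was higher and 0 were lower in G325E than in WT, 0 were higher in G325E than in vector, and the 5′ UTR share in WT was 0.00%. With at least 10 peaks together, only MTHFD1 was compared. It was not higher in WT than in vector (15.1% of genes were) and was lower in G325E than in WT (17.9% of genes were). No enzyme could be compared between G325E and vector. By regions of the canonical transcript, the 5′ UTR share was 0.00% in vector and 0.00% in WT, and the exon share in G325E was 100%. With a midpoint within 30 nt, 2 enzymes had a start codon peak in WT. In alternatives chosen after seeing the data, start codons of any annotated transcript gave 2 enzymes in vector, 2 in WT and 1 in G325E, and without PAICS and MTHFD1 the enzymes had 2.67 peaks per 10000 in vector, 7.53 in WT and 5.10 in G325E, which again put G325E above vector. The cause of these moves was not tested beyond what each setting leaves out. Peak lists without heights limit all of these values, since a peak that falls short of the cut-off in a shallower library is listed at 0.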

Other observations

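The nearest gene named in the lists and the gene whose exon holds a peak were often different for these enzymes. By the name column IMPDH2 would have 7 peaks in vector and 7 in WT, and all of these lie by their RefSeq identifier in QRICH1, a neighbouring gene. The 8 WT peaks in the exons of IMPDH2 were named NDUFAF3 instead. The exon 24 peaks of MTHFD1 were named AKAP5. For SHMT2 and PAICS both ways gave the same peaks.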
